A study of Mus musculus with 8 samples.

Results

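Imprinted growth regulators are genes expressed mainly from the copy inherited from 1 parent, and most of them restrain or promote growth before and after birth. Here 10 of them were followed in primary mouse ovarian follicular cells: H19, Meg3, Dlk1, Peg3, Mest, Plagl1, Grb10, Ndn, Phlda2 and Peg10. They were matched by their Entrez gene IDs and make up 10 of the 24235 genes with such an ID on the array. The cells, described by the submitters as mostly granulosa cells, came from preantral follicles of female Swiss mice. The mice were 8 weeks old, each replicate was a pool of 5, and cells were lysed after 9 days of culture. All cells were moved to hormone-free medium and were transfected with 12 pmol of siRNA together with a pDsRed plasmid. Control siRNA or FOXL2 siRNA was given for 24 h, and the final 10 h before lysis were spent in 17β-estradiol (E2, 100 nM) or its vehicle, which gave 4 groups of 2 one-colour Agilent arrays. FOXL2 is a forkhead transcription factor that maintains granulosa cell identity, and the design asks how its loss and estradiol, separately and together, change transcription.

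At an imprinted gene, a methylation mark set in the egg or the sperm leads to expression mainly from 1 parental copy. Neighbouring imprinted genes often share 1 control region with such a mark. H19, Meg3, Grb10 and Phlda2 are expressed mainly from the maternal copy in most tissues, and Dlk1, Peg3, Mest, Plagl1, Ndn and Peg10 from the paternal copy. H19 and Meg3 are long non-coding RNAs, and the other members encode proteins. An array measures the total RNA of a gene, so neither the parental origin of a transcript nor methylation was measured here, and fewer cells with a transcript cannot be told apart from less transcript per cell.

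Signals are processed spot intensities scaled so that the 75th percentile of each array was the same, and are given in scaled units, which order arrays for 1 gene but not genes among themselves. The unscaled 75th percentile lay between 275 and 367 units, between 51.3% and 55.6% of the probes of an array were well above background, and no spot was saturated. Replicates correlated at 0.989 to 0.992, over genes, and a gene differed between replicates by a median of 0.155 to 0.197 on the log2 scale. The siRNA target itself did not separate the arrays. Foxl2 read 8239 to 11237 units with control siRNA under vehicle, 6944 to 7845 with control siRNA under E2, 10745 to 10853 with FOXL2 siRNA under vehicle, and 7957 to 8895 with FOXL2 siRNA under E2 (log2 difference 0.18 ± 0.10 SE over both treatments, limma adjusted p = 0.334). A second, dimmer Foxl2 probe was lower with FOXL2 siRNA (log2 difference -0.97 ± 0.19 SE, limma adjusted p = 0.0199 over all probes), so the 2 probes disagreed and the arrays are called here by their labels. Cbs, Hsd11b2, Tacc1 and Angpt2 had log2 differences of -2.11, -2.33, -1.03 and -1.25 between E2 and vehicle with control siRNA, of which that of Cbs passed the limma test (adjusted p = 0.0141). This direction is opposite to the one the study describes for the response of its cells to E2. With FOXL2 siRNA the log2 differences of the same genes were 1.31, 1.18, 0.55 and 1.94, of which none passed the limma test. Whether the vehicle and E2 labels of the control siRNA arrays were exchanged was not tested. If they were, each E2 effect with control siRNA below would change sign. The siRNA differences within 1 treatment would set other arrays against each other, and the differences of E2 effects between siRNAs would change as well. Values averaged over both treatments rest on the same arrays whichever control arrays received E2. Markers of granulosa cells were well above background on 8 arrays for 6 of 9 genes, with summed signals of 114806 to 126658 units on the arrays with control siRNA and 123768 to 152296 on those labelled FOXL2 siRNA, while Fshr and Amh were above background on 0 arrays. The sums are mostly those of Amhr2, Inha and Inhba, and 1 of the 7 markers tested was called over both treatments, Esr2, an estrogen receptor, which was lower with FOXL2 siRNA (log2 -0.46, limma adjusted p = 0.0167). Cyp19a1, the aromatase gene, differed by -0.75 on the log2 scale (limma, adjusted p = 0.0819).

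The promoter windows of 2 members are shown because they hold the letters of a forkhead or FOXL2-type motif. RefSeq windows running from 250 bases before to 50 bases after a transcription start were at hand for 8 of the 10 members, all but H19 and Peg10. Both strands were searched for TGTTTAC, the core that forkhead factors bind, for GTCAAGG, a motif described for FOXL2 that shares letters with the site of steroidogenic factor 1, and for the palindromic estrogen response element. Of 32851 promoter windows, 3.65% held TGTTTAC, 3.18% held GTCAAGG and 0.07% held the estrogen response element. Among the members, Dlk1 held 2 matches to TGTTTAC and Peg3 held 1 match to GTCAAGG on the opposite strand. The windows of Meg3, Mest, Plagl1, Grb10, Ndn and Phlda2 held none of these letters. The Dlk1 window lies at chr12:109452573-109452872 on the plus strand and the Peg3 window at chr7:6730370-6730669 on the minus strand (GRCm38.p6, printed 5′ to 3′ along the gene, matches in capitals).
Dlk1: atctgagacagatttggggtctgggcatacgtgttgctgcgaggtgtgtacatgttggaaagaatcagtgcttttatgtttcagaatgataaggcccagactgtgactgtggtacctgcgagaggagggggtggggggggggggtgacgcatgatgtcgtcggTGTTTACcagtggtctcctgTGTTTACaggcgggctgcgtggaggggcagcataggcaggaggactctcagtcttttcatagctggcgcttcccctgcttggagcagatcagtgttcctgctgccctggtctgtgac
Peg3: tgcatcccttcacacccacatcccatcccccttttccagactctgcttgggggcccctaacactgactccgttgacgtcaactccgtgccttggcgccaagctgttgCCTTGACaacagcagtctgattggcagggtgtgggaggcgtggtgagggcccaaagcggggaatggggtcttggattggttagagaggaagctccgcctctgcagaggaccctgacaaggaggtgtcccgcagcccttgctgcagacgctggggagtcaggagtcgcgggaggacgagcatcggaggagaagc
A match is only a run of letters, and no binding was measured at these windows in the arrays. The study mapped FOXL2 binding in primary follicular cells by ChIP-seq, which was not used here. It reported binding sites enriched within the transcription units of activated targets but not around the start sites of its targets. Counts of the dinucleotide CG, which carries the imprint when methylated, ranged from 1 in the second of 2 Meg3 windows to 45 in the second of 2 Grb10 windows, against a median of 7 over all windows. The Peg3 window held 13 such dinucleotides, that of Dlk1 9, and those of Plagl1 and Phlda2 26 each.

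Detection divided the members. Meg3, Peg3, Plagl1, Ndn and Peg10 had a median signal of at least 10 units and were tested, and H19, Dlk1, Mest, Grb10 and Phlda2 fell below that limit in these cells. For comparison, 15638 of the 24235 genes passed it. Meg3, Plagl1, Ndn and Peg10 were well above background on 8 of 8 arrays and Peg3 on 7.

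**Figure D1:**
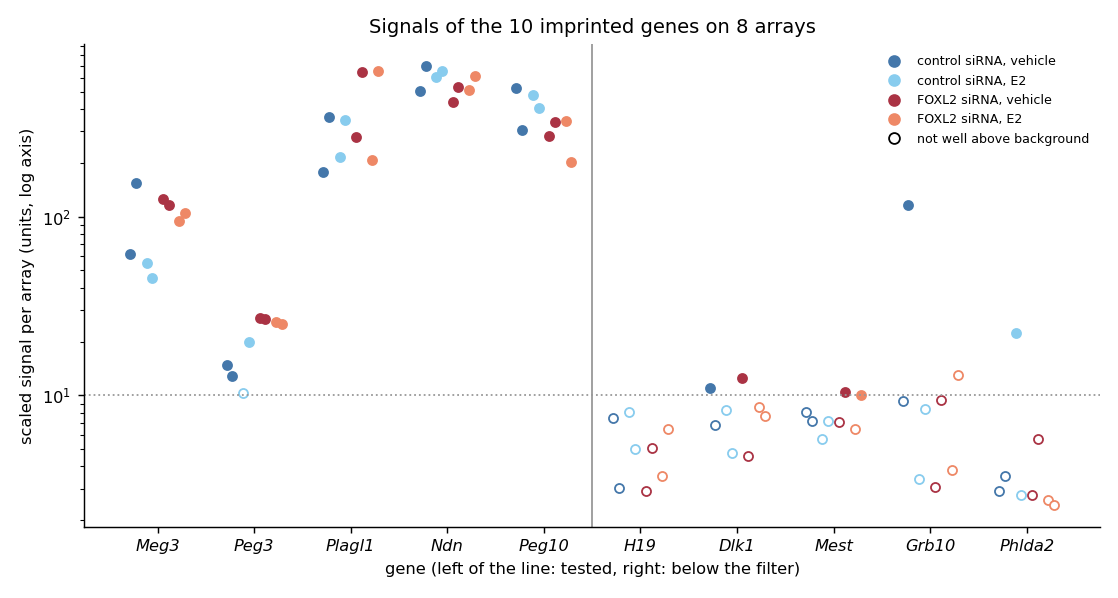
Scaled signal of each of the 10 members (log axis) on the 8 arrays, coloured by group, with open points where no probe of the gene was well above background; the dotted line marks 10 units. Meg3, Peg3, Plagl1, Ndn and Peg10 lie above the line, and the other members lie mostly below it, with 1 high array each for Grb10 (116 units) and Phlda2 (22.3 units).

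H19, a non-coding RNA that shares a control region with the growth factor gene Igf2, was well above background on 0 of 8 arrays and read between 2.92 and 8.03 units. Dlk1, a membrane protein of the Notch ligand family that keeps precursor cells from differentiating, was well above background on 2 arrays, 1 of control siRNA with vehicle (11.0 units) and 1 of FOXL2 siRNA with vehicle (12.5 units), within a whole range of 4.58 to 12.5. Mest, which encodes a protein of the hydrolase fold family, read 5.72 to 10.4 units over 3 probes and 12 spots and was above background on 2 arrays, both labelled FOXL2 siRNA. None of these ranges separated control siRNA from FOXL2 siRNA.

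Grb10, an adaptor protein that dampens insulin and IGF receptor signalling, was seen on 1 array only. Its single probe read 116 units on control siRNA with vehicle replicate 2 and 3.09 to 13 on the other arrays, with 9.25 on the other replicate of the same group. Phlda2, which restrains placental growth, likewise read 22.3 units on control siRNA with E2 replicate 1 and 2.44 to 5.70 elsewhere. The Grb10 reading was 8.95-fold above the next highest array and that of Phlda2 3.90-fold. Over all genes 2.61%, 633 of them, had 1 array at least 4-fold above the next highest, with 47 to 101 genes per array. With no filter on dim genes, 0 of the 10 members passed the limma test in any of the 6 comparisons.

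The 5 members that passed the filter were then compared between siRNAs and between treatments. None passed an adjusted p of 0.05 in the limma fit, in any of the 6 comparisons, when the probes of a gene were averaged. Over both treatments 0 of 5 were called, where 12.6% of all genes tested were called (1003 higher and 968 lower with FOXL2 siRNA). At an unadjusted p under 0.05 the count was 3 of 5, Meg3, Peg3 and Peg10, beside 26.8% of all genes. With vehicle 0 of 5 were called, beside 6.57% of all genes, and with E2 0 of 5, beside 4.39%. At an unadjusted p under 0.05 the counts were 1 with vehicle, beside 19.7% of all genes, and 2 with E2, beside 16.6%. The median log2 difference of the 5 over both treatments was 0.59, and that of all genes tested was -0.00. With 5 members this median is the value of Plagl1 (± 0.44 SE), and 3 members were higher and 2 lower. With the replicate number as a block, an alternative whose pairing the labels do not state, 1 of 5 passed with vehicle, 2 with E2 and 5 over both treatments, beside 18.7%, 14.9% and 27.7% of all genes.

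**Figure D2:**
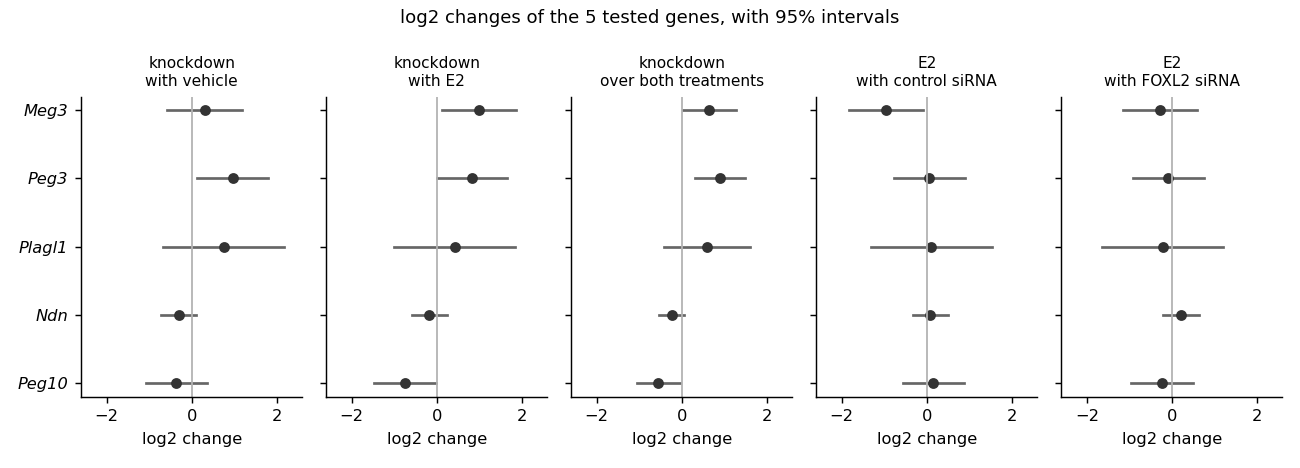
log2 differences (points) with 95% intervals (lines) of the 5 tested members in 5 comparisons: FOXL2 siRNA against control siRNA with vehicle, with E2 and over both treatments, and E2 against vehicle with either siRNA. Over both treatments Peg3 stands at 0.90, Meg3 at 0.65, Plagl1 at 0.59, Ndn at -0.24 and Peg10 at -0.55, and the intervals of Plagl1 and Ndn include 0.

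Peg3 (Entrez ID 18616) encodes a large zinc finger protein that acts in growth and in maternal behaviour. It read 14.7 and 12.9 units with control siRNA under vehicle, 10.3 and 19.9 with control siRNA under E2, 27.0 and 26.7 with FOXL2 siRNA under vehicle, and 25.8 and 25.1 with FOXL2 siRNA under E2. Each of the 4 arrays labelled FOXL2 siRNA was above each of the 4 with control siRNA, as in 10.1% of the genes tested. The difference was 1.86-fold over both treatments (log2 0.90 ± 0.25 SE, 95% interval 0.31 to 1.48) and did not pass after adjustment over all genes (limma, adjusted p = 0.0583). It was 0.97 ± 0.36 with vehicle and 0.83 ± 0.36 with E2 on the log2 scale (limma, adjusted p = 0.182 and 0.304). The call over both treatments depended on single arrays: without control siRNA with E2 replicate 2, at 19.9 units, the log2 difference was 1.13 and passed (limma, adjusted p = 0.03). Leaving out replicate 1 of the same group, at 10.3 units, gave 0.66 (limma, adjusted p = 0.128), and 0.35 for the difference with E2. With another background correction, normexp with an offset of 50, the log2 difference was 0.22 (limma, adjusted p = 0.153). That offset exceeds the readings of the gene and by itself narrows log2 differences, so the 2 corrections cannot be compared by this value.

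Both Peg3 probes kept the siRNA groups apart, the dimmer one only narrowly. The brighter one ran from 14.4 to 29.5 units with control siRNA and from 35.8 to 43.5 with FOXL2 siRNA. The dimmer one, not well above background on any array, ran from 3.81 to 10.4 and from 10.5 to 15.7. How many of all probes kept the siRNA groups apart was not counted.

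Meg3 (Entrez ID 17263), a non-coding RNA from the Dlk1-Meg3 domain known to slow cell growth, was measured by 3 probes that did not behave alike. Averaged over them, it read 61.6 and 154 units with control siRNA under vehicle, 55.0 and 45.2 with control siRNA under E2, 125 and 117 with FOXL2 siRNA under vehicle, and 94.1 and 105 with FOXL2 siRNA under E2. Control siRNA with vehicle replicate 2 was the highest array, and the other 3 with control siRNA were the lowest. The difference over both treatments was 1.57-fold (log2 0.65 ± 0.27 SE, 95% interval 0.03 to 1.27; limma, adjusted p = 0.165).

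Probe A_51_P455997, well above background on 8 arrays, read 159 and 151 units with control siRNA under vehicle, 147 and 121 with control siRNA under E2, 333 and 315 with FOXL2 siRNA under vehicle, and 234 and 273 with FOXL2 siRNA under E2. Its 4 readings with FOXL2 siRNA all lay above its 4 with control siRNA, by 1.99-fold over both treatments (log2 0.99 ± 0.11 SE; limma over 31487 probes, adjusted p = 0.0017). It passed with vehicle (log2 1.07 ± 0.15 SE, limma adjusted p = 0.0101) and with E2 (log2 0.92 ± 0.15 SE, limma adjusted p = 0.0242). Of all probes tested, 7.97% passed over both treatments, 3.62% with vehicle and 2.41% with E2. The share of all probes that kept the siRNA groups apart was not counted. This fit of single probes was chosen after the values were seen, and among the probes of the members it was the only one that passed.

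Probe A_55_P2033407, annotated to the same Meg3 transcript, read 305 units on control siRNA with vehicle replicate 2 and 10.5 to 31.9 on the other 7 arrays. On those 7 it was 10.5 to 12.6 with control siRNA and 21.1 to 31.9 with FOXL2 siRNA, but with the array at 305 units its log2 difference was 0.02 ± 0.83 SE. The third probe, A_52_P196568, read 3.90 to 13.4 units with control siRNA and 11.8 to 21.3 with FOXL2 siRNA (log2 1.05 ± 0.40 SE; limma over probes, adjusted p = 0.173). Without control siRNA with vehicle replicate 2 the averaged gene differed by 0.98 on the log2 scale over both treatments and passed (limma, adjusted p = 0.00856). The same array held the isolated reading of Grb10 and the highest reading of Mirg, a non-coding RNA downstream of Meg3, at 261 units against 30.3 to 80.4 elsewhere. The Mirg reading came from probe A_55_P2048867, at 744 units against at most 209 elsewhere. The other Mirg probes were highest on arrays of FOXL2 siRNA with vehicle, at 23.3 and 46.9 units. Control siRNA with vehicle replicate 2 held 97 of the 633 genes and 262 of the 1753 probes with an isolated high reading. The origin of these readings was not tested.

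**Figure D3:**
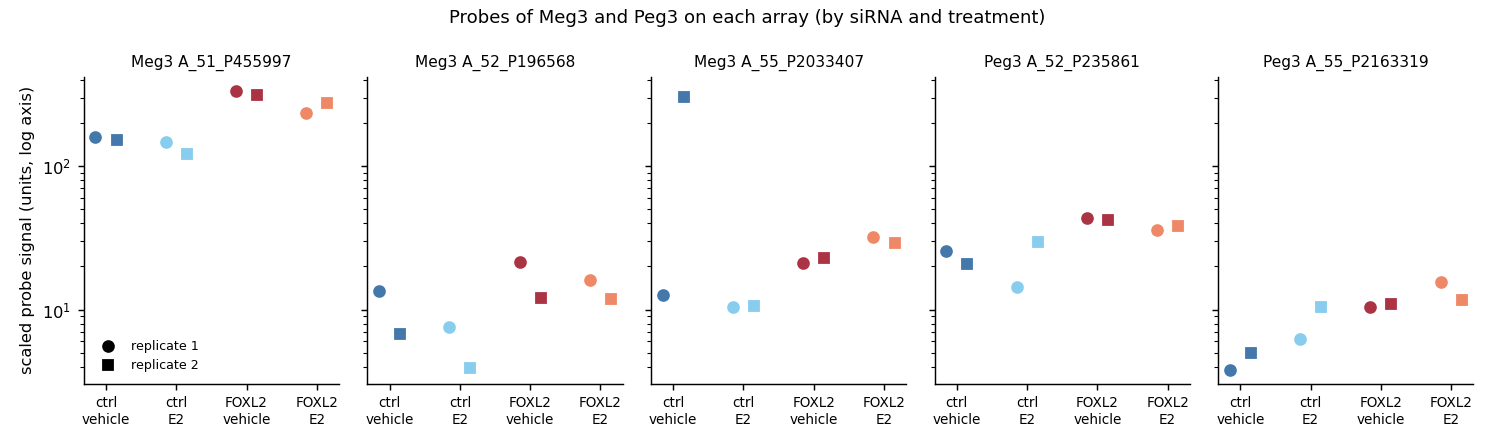
Scaled signal (log axis) of the 3 Meg3 probes and the 2 Peg3 probes on each array, by siRNA (ctrl, control siRNA) and treatment; circles are replicate 1 and squares replicate 2. Meg3 probe A_51_P455997 lies at 121 to 159 units with control siRNA and 234 to 333 with FOXL2 siRNA, whereas A_55_P2033407 has 1 array at 305 units.

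Plagl1 (Entrez ID 22634), a zinc finger transcription factor that can arrest the cell cycle and that regulates other imprinted genes, varied more between replicates than between siRNAs. It read 179 and 360 units with control siRNA under vehicle, 215 and 348 with control siRNA under E2, 281 and 647 with FOXL2 siRNA under vehicle, and 207 and 651 with FOXL2 siRNA under E2. In all 4 groups replicate 2 was the higher array, by 2.02-, 1.61-, 2.30- and 3.14-fold in that order. The difference between siRNAs over both treatments was 1.50-fold (log2 0.59 ± 0.44 SE, 95% interval -0.42 to 1.60; limma, adjusted p = 0.449). This fit leaves the replicate gap in its spread. Within replicate 1 the log2 difference was 0.65 with vehicle and -0.06 with E2, and within replicate 2 it was 0.84 and 0.90. With the replicate number as a block, whose pairing the labels do not state, Plagl1 passed (limma, adjusted p = 0.00389), beside 27.7% of all genes.

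The replicate gap was carried by 2 of the 4 Plagl1 probes. A_55_P1961968 read 296 to 557 units on the 4 arrays of replicate 1 and 707 to 1404 on those of replicate 2, and A_52_P532456 read 285 to 453 and 576 to 1091. The other probes, A_55_P1961965 at 62.8 to 102 units and A_55_P2153251 at 42.3 to 66.8, were well above background on 8 arrays and had overlapping ranges in the replicates. Which transcripts the probes tell apart was not tested. The summed signal of fibroblast and stroma markers went with the replicate number in the other direction. It was 9867 to 14205 units on the arrays of replicate 1 and 5382 to 7123 on those of replicate 2. Of the 5 genes, 4 were well above background on 8 arrays and Pdgfra on 0. Dcn alone read 4962 to 12635 units and made up most of the sum.

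**Figure D4:**
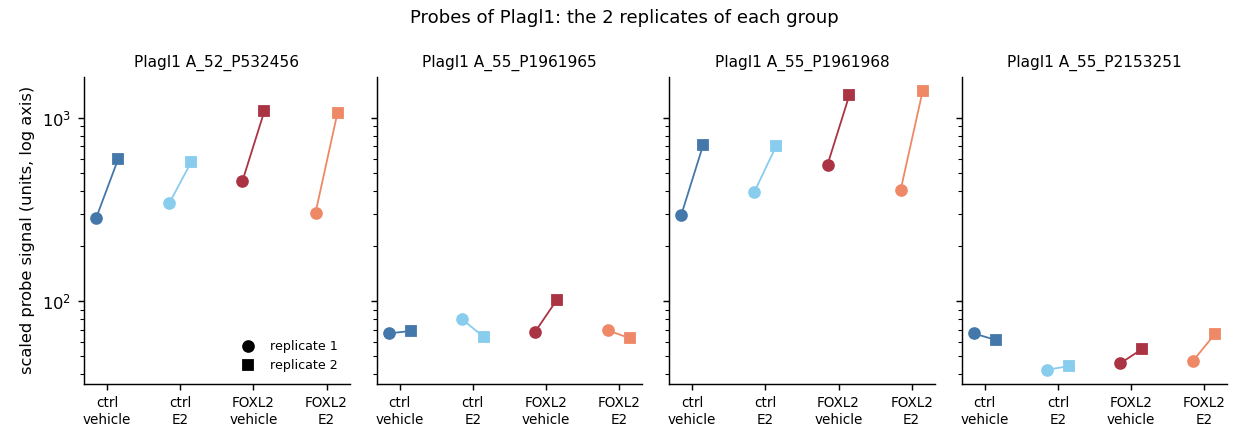
Scaled signal (log axis) of the 4 Plagl1 probes, with a line joining replicate 1 (circle) and replicate 2 (square) of each group (ctrl, control siRNA). In A_52_P532456 and A_55_P1961968 each line climbs from replicate 1, at most 557 units, to replicate 2, at least 576 units, and in the other probes the lines have no common direction.

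Ndn (Entrez ID 17984), a growth suppressor of the MAGE protein family, varied little. It read 508 and 698 units with control siRNA under vehicle, 605 and 657 with control siRNA under E2, 439 and 530 with FOXL2 siRNA under vehicle, and 511 and 614 with FOXL2 siRNA under E2. The ranges of the siRNAs overlapped, and the log2 difference over both treatments was -0.24 ± 0.13 SE (95% interval -0.53 to 0.06; limma, adjusted p = 0.287).

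Peg10 (Entrez ID 170676), derived from a retrotransposon and needed for the placenta, read 523 and 304 units with control siRNA under vehicle and 482 and 405 with control siRNA under E2. With FOXL2 siRNA it read 282 and 341 with vehicle and 344 and 202 with E2. The arrays overlapped only through control siRNA with vehicle replicate 2, at 304 units. The log2 difference over both treatments was -0.55 ± 0.22 SE (95% interval -1.06 to -0.04; limma, adjusted p = 0.153), and its 2 probes gave -0.57 ± 0.19 and -0.52 ± 0.27.

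Estradiol left no call among the members. With control siRNA 0 of 5 passed, beside 0.0192% of all genes (3 genes), and with FOXL2 siRNA 0 of 5, beside 0.0128% (2 genes). The log2 differences ran from -0.97 (Meg3) to 0.15 (Peg10) with control siRNA and from -0.28 (Meg3) to 0.22 (Ndn) with FOXL2 siRNA, each with an adjusted p of 1 in limma. The Meg3 value rested on the array with the isolated probe reading: without it the difference was -0.30, and in probe A_51_P455997 it was -0.22 ± 0.15 SE. With control siRNA the 95% intervals of the E2 effect reached from -0.33 to 0.50 for Ndn but from -1.32 to 1.54 for Plagl1, so that a change of 2-fold in Plagl1 would lie within its interval. The effect of E2 differed between the siRNAs for 0 of 5 members, beside 0.243% of all genes (38 genes), and the members' log2 differences of that kind ran from -0.38 to 0.68. The upper end, that of Meg3, was 0.02 without control siRNA with vehicle replicate 2 and 1.35 without replicate 1 of that group. At an unadjusted p under 0.05 the members' counts in these 3 comparisons were 1, 0 and 0, beside 4.58%, 3.04% and 4.9% of all genes.

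The neighbours of the members in the same imprinted domains, with other imprinted genes, gave a list of 60, of which 57 were on the array and 43 passed the filter. They are called other imprinted genes here, but whether each is imprinted in these cells was not measured. Over both treatments 8 of the 43 (18.6%) passed the limma test, 6 higher and 2 lower with FOXL2 siRNA, beside the 12.6% of all genes given above. Their median log2 difference was 0.05. With vehicle 3 passed (6.98%) and with E2 2 passed (4.65%), all of them higher, and in both E2 comparisons 0 passed.

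Of the 8, 3 lie in the domain of H19, Igf2 and Kcnq1 that also holds Phlda2, where 10 of 14 genes were tested. Tspan32, a tetraspanin of blood cells, read 46.0 to 65.4 units with control siRNA and 97.9 to 120 with FOXL2 siRNA (log2 0.97 ± 0.17 SE, limma adjusted p = 0.0089). Cd81, another tetraspanin, read 38685 to 44341 and 52864 to 64743 units (log2 0.45 ± 0.09 SE, limma adjusted p = 0.0136). Tssc4 read 3925 to 4875 and 5727 to 8462 units (log2 0.62 ± 0.12 SE, limma adjusted p = 0.0121). In none of these did the siRNA groups overlap, as in 10.1% of all genes tested, with FOXL2 siRNA higher. These genes were named because they passed on the same arrays, so the lack of overlap adds no support. Cdkn1c, a cell cycle inhibitor of the same domain, read 21.0 to 33.4 units over all arrays (log2 0.10 ± 0.21 SE, limma adjusted p = 0.814), and Igf2 was above background on 1 array.

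In the domain of Meg3 and Dlk1, Begain read 91.0 to 134 units with control siRNA and 56.5 to 64.9 with FOXL2 siRNA, lower by log2 -0.82 ± 0.17 SE (limma, adjusted p = 0.0174), while the brightest Meg3 probe was higher on the same arrays. Rtl1 and Dio3, like Dlk1, fell below the filter. Next to Grb10, Ddc, the enzyme that makes dopamine and serotonin, read 7.40 to 11.3 units with control siRNA and 19.2 to 27.5 with FOXL2 siRNA (log2 1.30 ± 0.22 SE, limma adjusted p = 0.00832). In the domain of Ndn, Atp10a, a phospholipid flippase, was lower (log2 -0.75 ± 0.14 SE, limma adjusted p = 0.0119), and the other 6 genes tested there, Ndn included, were not called. In the domain of Peg10, 7 of 9 genes were tested and 0 called, with Sgce, the neighbour that shares its control region, at -0.20 ± 0.07 SE on the log2 scale (limma, adjusted p = 0.0878). The 2 remaining calls were Gatm, the first enzyme of creatine synthesis, at 177 to 229 against 375 to 454 units (log2 1.02 ± 0.08 SE, limma adjusted p = 0.000454), and Airn, the non-coding RNA that silences Igf2r, at 374 to 516 against 632 to 761 units (log2 0.65 ± 0.12 SE, limma adjusted p = 0.0113). Igf2r itself differed by -0.03 ± 0.10 SE on the log2 scale (limma, adjusted p = 0.895).

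**Figure D5:**
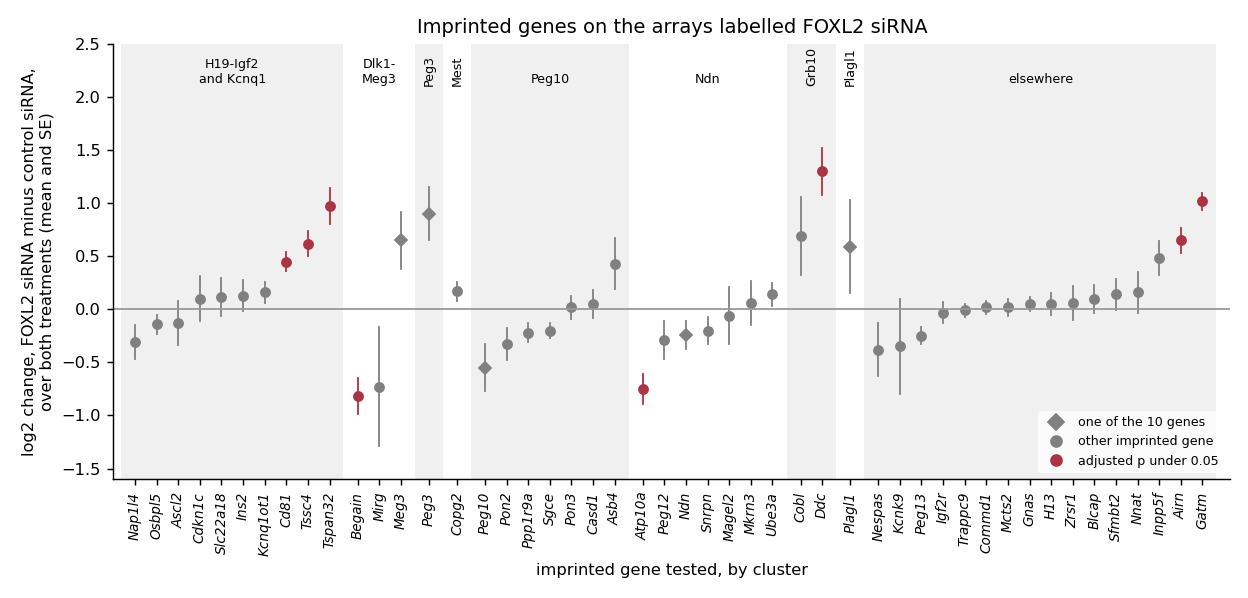
log2 difference between FOXL2 siRNA and control siRNA over both treatments (points, with SE as lines) for the 48 genes tested, by domain. Diamonds are members, and circles are genes listed as imprinted or as neighbours in imprinted domains. Imprinting in these cells was not measured. Red marks an adjusted p under 0.05. The red points are Cd81, Tssc4, Tspan32, Begain, Atp10a, Ddc, Airn and Gatm, and no diamond is red.

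Genes that set, keep or erase imprints were compared in the same way. Of 14 such genes 12 passed the filter and 0 were called over both treatments by limma, beside 12.6% of all genes, and 4 had an unadjusted p under 0.05, beside 26.8% of all genes, with a median log2 difference of -0.03. Dnmt1, which copies methylation at cell division, differed by 0.06 ± 0.07 SE, and Trim28 and Zfp57, which guard imprints in the embryo, by -0.12 ± 0.07 and 0.02 ± 0.10 on the log2 scale (limma, adjusted p = 0.691, 0.351 and 0.943). Larger differences were those of Tet1 (0.27 ± 0.10 SE) and Tet2 (0.25 ± 0.08), which were higher with FOXL2 siRNA. Dnmt3a (-0.20 ± 0.06), Zfp445 (-0.23 ± 0.08), Dnmt3b (-0.23 ± 0.13) and Dnmt3l (-0.20 ± 0.21) were lower, and Tet3 differed by -0.03 ± 0.13. Tet1, Tet2, Dnmt3a and Zfp445 had the lowest adjusted p of the list (limma, 0.142, 0.103, 0.0829 and 0.0904), and none of them passed.

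Markers of other cell types moved with the siRNA labels in part. The 4 Sertoli cell markers, all well above background on 8 arrays, summed to 2339 to 3245 units with control siRNA and 4364 to 6274 with FOXL2 siRNA, and 2 of them passed over both treatments: Sox9 (log2 2.05, limma adjusted p = 0.000301) and Dhh (log2 1.04, limma adjusted p = 0.00084). Dhh alone read 2116 to 5784 units and made up most of that sum. Dmrt1 differed by -0.48 (limma, adjusted p = 0.0694) and Cldn11 by 0.59 (limma, adjusted p = 0.322) on the log2 scale. Theca and interstitial markers summed to 3837 to 4849 and 5688 to 6645 units, with 0 of 3 tested genes called and Lhcgr above background on 0 arrays. The macrophage markers summed to 471 to 514 and 491 to 636 units with Ptprc and Lyz2 above background on 0 arrays, and the oocyte markers to 105 to 160 and 132 to 176 units with Bmp15, Zp3 and Oosp1 on 0. Endothelial markers summed to 1098 to 1812 and 1581 to 1951 units, with Cdh5 and Tek above background on 0 arrays. Fibroblast and stroma markers summed to 5382 to 10149 units with control siRNA and 6776 to 14205 with FOXL2 siRNA. The sum was higher with FOXL2 siRNA in replicate 1 (9867 to 10149 against 13766 to 14205) and in replicate 2 (5382 to 6387 against 6776 to 7123). Dcn alone read 4962 to 12635 units and made up most of it. Of the 4 tested genes 0 were called. Col1a1 differed by 1.10 (limma, adjusted p = 0.0739), Thy1 by 0.48, Dcn by 0.31 and Lum by -0.57 on the log2 scale. The part of these cell types in the values of Peg3, Meg3 and the called imprinted genes was not tested.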

How the data were processed

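RNA of 8 samples (50 ng each, amplified and Cy3-labelled) was hybridised to 8 one-colour arrays that shared 1 slide, which left no slide batch to test. Groups and replicate numbers came from the sample titles. The deposited scanner files hold intensity values per spot, background-subtracted by the authors' Agilent Feature Extraction (11.5.1.1 in the submitters' processing notes). The authors also deposited a table of log2 values, which matched the log2 of the processed intensity within 0.001 for 98.6% to 98.9% of values once 1 constant per array was subtracted (column medians -4.24 to -3.95); the origin of the constant is not given in the sources used here, and the table served only as an alternative.

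From the 62976 spots per array, 3671 control spots were left out, with 39 probes flagged as non-uniform. The other 55642 probes were scaled per array at the 75th percentile and averaged over the spots of a probe and, on the linear scale, over the probes of an Entrez ID. A probe counted as well above background where more of its spots did than did not. Genes with a median signal of at least 10 units were tested on the log2 scale with limma (3.58.1, R 4.3.3) as 4 group means with an intensity trend, two-sided, with Benjamini-Hochberg adjustment over 15638 genes and a threshold of 0.05. The numbers of arrays (2 per group) limit the precision. The labels describe the replicates as separate pools of mice.

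The members and gene lists were chosen with earlier results of these data known. Named were all members, Foxl2, and, from the lists of imprinted genes and imprint keepers, genes that passed the test, and the listed cell type markers; the other genes named were chosen after their values were seen; genes with a pattern like that of a member were to be named only for members that passed, and none did. Alternatives covered background correction, normalization, filters, probe summary, replicate block and leaving out each array. Tables were handled in Python 3.11.15 with pandas 2.3.3 and figures drawn with matplotlib 3.10.9. Promoter windows and symbols came from RefSeq tables of GRCm38.p6, which is not the build of the array annotation. Coordinates are therefore given only for the printed promoter windows of Dlk1 and Peg3.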

Additional observations from a re-analysis of the deposited data

How the results depend on the processing

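The direction of the difference between siRNAs over both treatments held for the 5 tested members under every alternative run, and of 320 member values under 11 settings 305 kept direction and side of the threshold, 12 passed only under the alternative and 3 turned sign. With the replicate number as a block (replicate block), members called were 1 with vehicle, 2 with E2 and 5 over both treatments (Meg3 0.0384, Ndn 0.0292, Peg10 0.0133, Peg3 0.0206 and Plagl1 0.00389 as adjusted p), beside 18.7%, 14.9% and 27.7% of all genes; other imprinted genes called were 10, 8 and 15, and imprint keepers 3. The numbers come from titles alone, so the block is no main result. Same-numbered samples deviated together at r = 0.327 to 0.445 over the 6 pairs of groups, which the main fit leaves in its spread. Taking the brightest probe, or each probe on its own, called 1 member (Meg3) with vehicle, with E2 and over both treatments; each probe with the block called 2, 1 and 4. Without the intensity trend 1 member, Peg3, was called over both treatments (adjusted p = 0.0481). Other imprinted genes called with vehicle and with E2 numbered 1 and 1 with no filter, and 1 and 1 in a fit of the compared groups alone. Leaving out 1 array gave 0 to 1 members with E2 and over both treatments; Meg3 was called with E2 without control siRNA with vehicle replicate 1 (adjusted p = 0.0273) or 2 (adjusted p = 0.0303). Other imprinted genes ranged from 1 to 2 with vehicle, 0 to 2 with E2 and 5 to 10 over both treatments, where leaving out control siRNA with E2 replicate 1 gave 5.

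Signs turned for the Meg3 difference of E2 effects with the brightest probe (-0.14), and for Peg3 with E2 and control siRNA under normexp (-0.01) and the brightest probe (-0.16). Without 1 array, 21 of 240 member values turned sign, 18 of them E2 effects or differences of these. The ranges were -0.35 to 0.97 for Meg3 and -0.76 to 0.03 for Peg10 with vehicle, and -0.40 to 1.25 for Plagl1 with E2. For E2 with control siRNA they were -0.41 to 0.54 (Peg3), -0.40 to 0.61 (Plagl1), -0.15 to 0.31 (Ndn) and -0.24 to 0.54 (Peg10), and with FOXL2 siRNA -1.04 to 0.61 (Plagl1) and -0.62 to 0.15 (Peg10). For the difference of E2 effects they were 0.02 to 1.35 (Meg3), -0.61 to 0.34 (Peg3), -1.15 to 0.50 (Plagl1), -0.10 to 0.36 (Ndn) and -0.77 to 0.01 (Peg10). The causes were not tested. A group reduced to 1 array was assumed to vary like the others.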
